A study of Mus musculus with 21 samples.

Results

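The data described here are RNA-seq profiles of microglia from Fgg390-396A mice 7 d after traumatic brain injury (TBI), set against microglia of sham-operated wild-type (WT) mice. They were chosen by library name, and make up 6 of the 21 libraries of the series, 3 per group. The mutant mice carry a knock-in of the fibrinogen γ chain gene, in which 7 codons were replaced by alanine codons, and they received a controlled cortical impact (CCI). Sham mice were WT and had a craniotomy without impact. All were male, on a C57BL/6 background and 17 to 24 weeks old. Each library was a separate random pool of peri-lesional tissue from 2 brains, from which 40000 live CD45low CD11b+ cells were sorted. A sham group of the mutant genotype was not analysed here, so mutation and injury cannot be told apart in the comparison with sham. WT microglia at 7 d (3 libraries) and mutant microglia at 1 d (3 libraries) are given only to place the mutant values.

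Fibrinogen is a blood protein that enters the brain where vessels leak and is then turned into insoluble fibrin. A short part of its γ chain that is hidden in the soluble protein becomes a ligand for CD11b/CD18, an integrin of myeloid cells. In Fgg390-396A mice this contact is lost, whereas clots still form. Microglia of the resting brain express a set of homeostatic genes, and in many settings of damage they lose some of these, take up a lipid-handling and phagocytic program known as disease-associated microglia (DAM), or switch on genes under interferon control.

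The replaced stretch is shown because it is the only designed difference between the genotypes. It was read from the coding sequence of Fgg (chromosome 3, 83007724 to 83015049, + strand, GRCm38), bases 1243 to 1263 of the coding sequence, and the 7 codons in capitals are those changed in the mutant.

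Fgg codons: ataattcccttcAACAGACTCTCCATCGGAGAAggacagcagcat

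Because the knock-in exchanges codons and leaves the gene in place, the level of Fgg checks no label. Fgg itself had 0 counts in every sham and every WT library at 7 d, and 3, 3 and 14 counts in the mutant libraries at 7 d. The difference from sham was not called (adjusted p = 0.43).

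Depth was 18896957 to 28550018 mapped reads per sham library and 24448811 to 32577781 per mutant library. The first sham library stood apart in a set of 31 immediate early and dissociation-response genes, whose summed level was 1946 CPM (counts scaled to a common library size) against 457 and 588 in the other sham libraries and 694 to 955 in the mutant libraries. The third sham library held the most neutrophil marker RNA of the 6 (868 CPM over 16 markers, against 160 to 478 in the other 5 libraries). Ribosomal RNA genes took 43.5% to 47.9% of the reads in sham and 48.7% to 52.8% in mutant libraries, and mitochondrial genes took 6.48% to 8.26% and 8.51% to 8.62% of the remaining reads. Neither share overlapped between the groups, and their part in the results was not tested. The levels given are these CPM scaled by trimmed mean of M-values (TMM) factors, with gene length already divided out, so that levels of different genes can be set side by side. A gene was called where its log2 fold change exceeded 1 in size and its Benjamini-Hochberg adjusted p over all genes, from edgeR's quasi-likelihood test, was under 0.05.

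Mutant microglia at 7 d differed from sham microglia mainly in genes that were higher. Of 23815 genes tested, 158 (0.663%) were called, 150 (0.63%) of them higher and 8 (0.0336%) lower. In all 158 the 3 mutant and 3 sham libraries did not overlap, which largely follows from calling them on these same libraries. Over all tested genes, 8.45% did not overlap in the higher direction and 7.2% in the lower. An unadjusted p under 0.05 was reached by 1808 genes (7.59%). The 150 higher genes comprised 126 protein-coding genes and 23 annotated as pseudogenes, with a median log2 fold change of 2.35 and a range of 1.03 to 8.88. The first mutant library was the highest of the 3 in 93 of these 150 genes. The count of called genes was 82 without the first sham library and 74 without the second, and 85 when only the 6 compared libraries were fitted.

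Of the 12 protein-coding genes with the smallest p, 7 are described first and the other 5 with their lists. Cd72, an inhibitory lectin-type coreceptor, was at 1.21, 1.63 and 3.22 CPM in the sham libraries and at 26.8, 21.5 and 18.2 CPM in the mutant libraries. This was a 10.9-fold rise, with a log2 fold change of 3.44 ± 0.42 (SE, n = 3 and 3) and an adjusted p = 0.00049. Here and below, the SE rests on a spread estimated over all 21 libraries. Il2rg, the common γ chain of interleukin receptors, went from 0.765, 3.19 and 2.39 CPM to 21.4, 11.6 and 18.6 CPM (log2 fold change 3.03 ± 0.39, adjusted p = 0.00058). Every mutant library lay above every sham library for both receptors. Myo5a, a motor protein that carries vesicles along actin, rose from 7.49, 6.60 and 7.37 CPM to 20.3, 18.7 and 27.2 CPM (log2 fold change 1.62 ± 0.21). Lgals3bp, a secreted glycoprotein that binds galectin-3, rose from 57.6, 56.9 and 95.9 CPM to 485, 256 and 349 CPM (log2 fold change 2.37 ± 0.33, adjusted p = 0.00092). Lower levels were reached by Cd300lf, an inhibitory receptor (log2 fold change 2.90), by Gas2l3, a linker of actin and microtubules (2.36), and by Rai14, an actin-associated protein (3.17), all 3 called higher and all under 10 CPM in every mutant library.

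**Figure D1:**
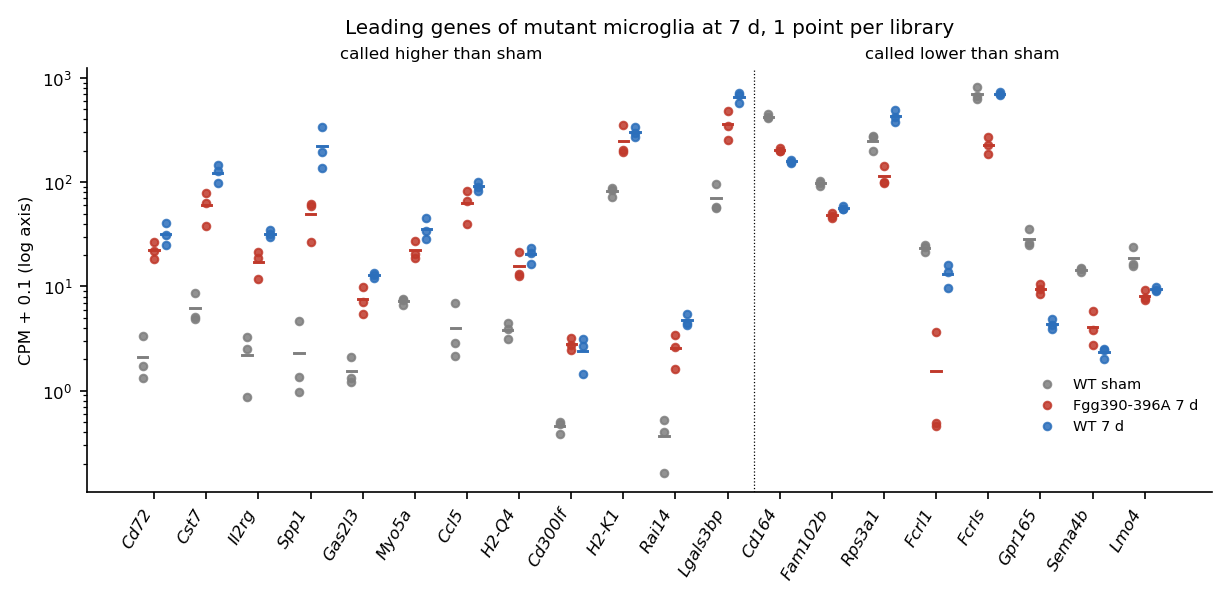
Level of the 12 leading higher and the 8 lower protein-coding genes in each library (1 point per library, bar = mean of 3) on a log axis of CPM + 0.1, for WT sham, Fgg390-396A at 7 d and WT at 7 d. For every gene shown the mutant and sham points do not overlap, which was a condition for showing it. For Fcrls the WT points at 7 d (683 to 730 CPM) lie with those of sham.

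The 8 lower genes had a median log2 fold change of -1.41 and a range of -3.98 to -1.04. Cd164, a sialomucin of the endosomal and cell surface, fell from 418, 414 and 446 CPM to 215, 199 and 197 CPM (log2 fold change -1.07 ± 0.15, adjusted p = 0.0011). Gpr165, an orphan receptor, fell from 35.2, 25.8 and 25.1 CPM to 8.35, 9.37 and 10.4 CPM (log2 fold change -1.62, adjusted p = 0.022). Sema4b, a transmembrane semaphorin, fell from 13.7, 14.5 and 14.9 CPM to 2.64, 3.73 and 5.70 CPM (log2 fold change -1.84, adjusted p = 0.025). Each of these 3 genes also fell in WT microglia at 7 d, with log2 fold changes over the same sham libraries of -1.43, -2.76 and -2.68. The other 5 lower genes, Fam102b, Rps3a1, Fcrl1, Fcrls and Lmo4, all lie on chromosome 3 and are described with that chromosome. Without the second mutant library the number of lower genes was 5.

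Of 37 tested genes of the DAM list, 14 were called higher and none lower, and the median of the list was 1.04 against 0 over all genes tested. Clec7a, a receptor for fungal glucans that marks activated microglia, had the smallest adjusted p of the list (6e-05). The annotation used here types it as a polymorphic pseudogene, so it was not counted among the protein-coding genes. Its level was 3.67, 11 and 8.12 CPM in sham and 85.7, 48.8 and 68.5 CPM in mutant libraries, an 8.92-fold rise (log2 fold change 3.16 ± 0.34). Cst7, an inhibitor of lysosomal cathepsins, rose 9.73-fold from 4.97, 4.82 and 8.55 CPM to 78.3, 37.9 and 62.8 CPM (log2 fold change 3.28 ± 0.42, adjusted p = 0.00055). No sham library reached the lowest mutant library for either gene. Spp1 (osteopontin, a secreted phosphoprotein) rose 21.7-fold, from 0.861, 1.25 and 4.55 CPM to 26.6, 62.3 and 58.9 CPM (log2 fold change 4.44 ± 0.57, adjusted p = 0.00058). Gpnmb, a membrane glycoprotein of lipid-laden phagocytes, was nearly undetected in sham (0.0956, 0.038 and 0.151 CPM) and reached 1.54, 6.96 and 3.91 CPM in mutant libraries (log2 fold change 5.29 ± 0.79, adjusted p = 0.0017). The first mutant library was the lowest of the 3 for both Spp1 and Gpnmb.

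Among the other called DAM genes, Axl, a receptor for dying cells, had a log2 fold change of 3.16, Itgax, the integrin subunit CD11c, of 2.27, and Csf1, a ligand of the microglial survival receptor, of 1.95. Itgax was at 1.12, 1.86 and 3.02 CPM in sham and 13.3, 5.31 and 10.4 CPM in mutant libraries. Cd52, a small anchored surface glycoprotein, rose from 77.6, 87.5 and 113 CPM to 342, 236 and 315 CPM (log2 fold change 1.68). The sensor chain of this program did not pass: Tyrobp had a log2 fold change of 0.50 (adjusted p = 0.35) and Trem2 one of 0.11. Igf1 (1.57, adjusted p = 0.48) and Lgals3 (1.20, adjusted p = 0.38) were not called either. The number of DAM genes called was 10 to 15 when any 1 of the 6 libraries was left out and 7 when only these 6 libraries were fitted.

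Genes of lipid uptake, storage and efflux overlapped the DAM list, and the 5 of 30 that were called higher are all members of both. Apoe, the main lipid carrier protein of the brain, was at 108, 476 and 753 CPM in sham and at 2279, 3340 and 3278 CPM in mutant libraries (log2 fold change 2.73 ± 0.58, adjusted p = 0.024). The sham libraries differed widely among themselves, with the first the lowest, and none overlapped the mutant libraries. Lpl, a lipase that releases fatty acids from lipoproteins, rose from 4.49, 5.20 and 6.34 CPM to 35.6, 31.4 and 47.5 CPM (log2 fold change 2.83). Ch25h, which makes 25-hydroxycholesterol, had a log2 fold change of 3.86, Olr1, a receptor for oxidized lipoprotein, of 2.58, and Fabp5, a fatty acid binding protein, of 2.28. The median of the 30 genes was 0.68. Without the first or second sham library, 3 and 2 of these 5 genes were called. Among 31 genes of cholesterol and fatty acid synthesis edgeR called none (median 0.17), with 3 at an unadjusted p under 0.05 and none called by DESeq2. Of 38 genes of lysosomal enzymes and membrane proteins it also called none (median 0.29), with 11 at an unadjusted p under 0.05 and 1 called higher by DESeq2.

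Markers of other cells moved with these genes in part. The summed level of 18 markers of infiltrating monocytes and macrophages was 104, 213 and 452 CPM in sham and 478, 679 and 637 CPM in mutant libraries, without overlap. No marker of that list was called by edgeR or DESeq2, and 5 had an unadjusted p under 0.05, all of them higher. Of the 18, 15 had a log2 fold change above 0, and the median was 0.93. In 6 of them the mutant libraries lay above all sham libraries (8.45% of all genes). Lyz2, a lysozyme gene that is also on the DAM list, made up most of the sum (78.6, 182 and 366 CPM in sham, 413, 579 and 551 CPM in mutant libraries). The defining markers Ccr2 (3.83 to 8.27 CPM in sham, 5.74 to 10.7 CPM in mutant libraries) and Ly6c2 (0.152 to 8.15 and 3.0 to 5.41 CPM) overlapped between the groups, and Ms4a3 was at 0 in all 3 mutant libraries. The 12 border macrophage markers summed to 150 to 445 CPM in sham and 237 to 479 CPM in mutant libraries. The part of such cells in the DAM and lipid results was not tested. In sorted pools of this kind, fewer cells of a type and less RNA per cell cannot be told apart.

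**Figure D2:**
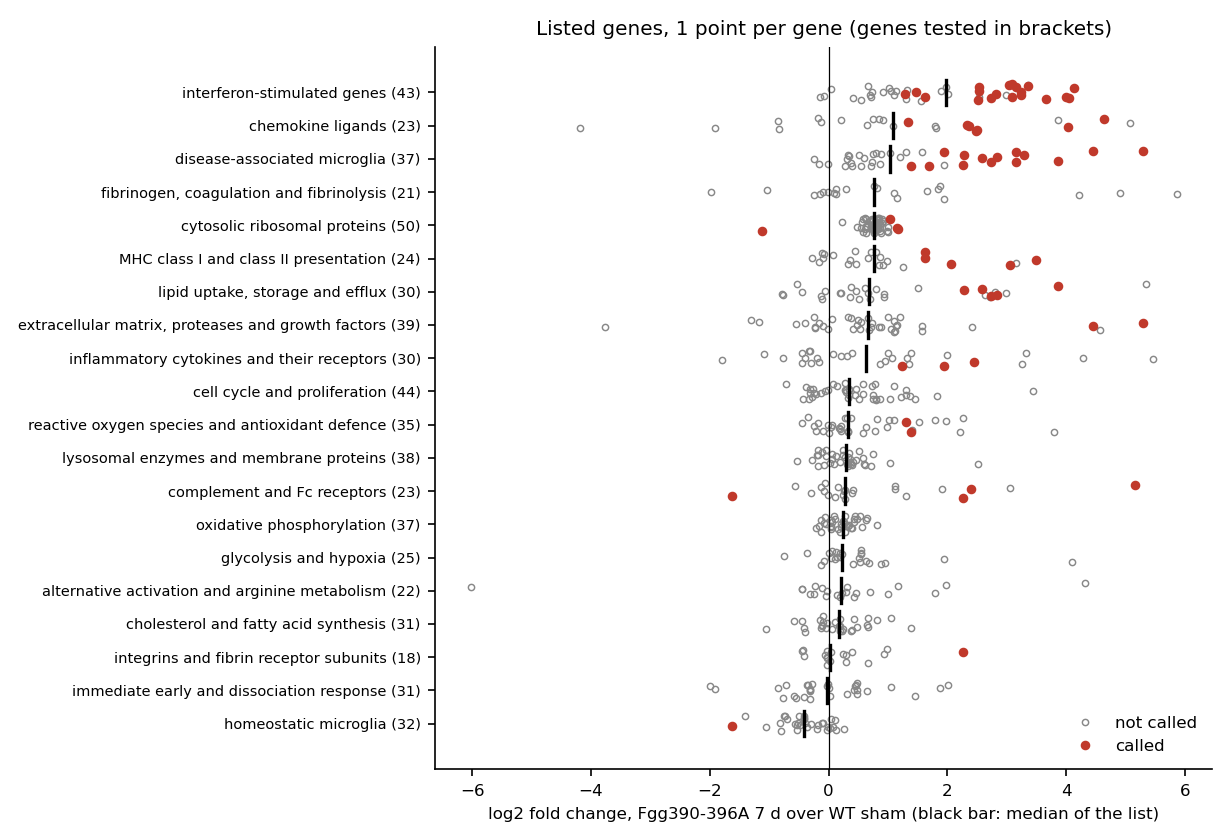
Log2 fold change of mutant microglia at 7 d over WT sham for each tested gene of 20 lists (1 point per gene, filled = called, black bar = median of the list, genes tested in brackets). The interferon-stimulated list has the highest median (1.97) and the homeostatic list the lowest (-0.41), and the ribosomal protein genes sit close together around a median of 0.76.

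Interferon-stimulated genes formed the longest list of called members. Of 43 tested, 19 were called higher and none lower, 41 had a log2 fold change above 0, and the median was 1.97. Zbp1, a sensor of left-handed nucleic acids, rose from 0.797, 1.18 and 3.22 CPM to 42.8, 19.8 and 21.5 CPM (log2 fold change 3.99 ± 0.61, adjusted p = 0.0021). Irf7, the transcription factor that amplifies type I interferon production, rose from 2.23, 1.4 and 2.49 CPM to 26.5, 11.1 and 14.6 CPM (log2 fold change 3.08, adjusted p = 0.0053). Ifit3, an antiviral RNA-binding partner protein, rose 9.42-fold from 4.78, 3.30 and 4.73 CPM to 63.0, 26.4 and 31.5 CPM (log2 fold change 3.24 ± 0.59, adjusted p = 0.0098). In each of these genes the first mutant library was well above the other 2, and this held for the order of the libraries in all 19 called genes.

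The other called members ranged from signalling to effector genes. Stat2, a signalling factor, had a log2 fold change of 1.62 (adjusted p = 0.018). Antiviral effectors among the called genes were Oasl2 (3.23) and Oas1a (2.52), which belong to the oligoadenylate synthetase family, Mx1 (3.66), a dynamin-like GTPase, and Bst2 (1.47), the tetherin that holds virus particles at the membrane. Bst2 was at 28.0, 24.2 and 36.7 CPM in sham and at 117, 62.6 and 67.7 CPM in mutant libraries. Isg15, a ubiquitin-like modifier, was at 3.70, 2.51 and 7.06 CPM in sham and 39.8, 18.5 and 18.8 CPM in mutant libraries (log2 fold change 2.53, adjusted p = 0.049). Irf1, which responds mostly to type II interferon, had a log2 fold change of 0.04 with overlapping libraries. The count of 19 depended on single libraries. It was 4 without the first sham library, 3 without the second sham library and 8 without the first mutant library, whereas 14 to 17 were called without any one of the other 3 libraries.

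Because these members moved together, the stretches before their start sites are shown for 4 of them, from the RefSeq promoter table of build GRCm38.p6. Each is printed 5′ to 3′ on the strand of the gene and ends at or before the start site, and capitals mark the letters GAAANNGAAA, the core of the interferon-stimulated response element, searched on both strands with overlaps merged.

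Ifit3 chr19:34583338-34583451 (+): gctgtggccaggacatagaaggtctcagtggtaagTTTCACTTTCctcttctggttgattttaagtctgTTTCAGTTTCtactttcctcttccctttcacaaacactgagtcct

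Isg15 chr4:156200840-156200931 (-): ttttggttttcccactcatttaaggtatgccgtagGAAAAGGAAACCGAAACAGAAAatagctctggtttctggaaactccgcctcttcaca

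Bst2 chr8:71537552-71537637 (-): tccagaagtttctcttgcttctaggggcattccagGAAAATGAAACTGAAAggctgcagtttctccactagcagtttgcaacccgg

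Oas1a chr5:120907526-120907580 (-): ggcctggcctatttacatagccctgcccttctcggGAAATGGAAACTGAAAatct

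Over windows of 250 bases before to 50 bases after the start site, this motif was present in 1079 of 27025 genes (3.99%). It was present in 23 of the 101 called higher genes that have a window in the table (22.8%), in 10 of 14 such called interferon-stimulated genes (71.4%), and in 13 of the 87 called higher genes not on that list (14.9%). Of 11 called DAM genes with a window, 2 (18.2%) held it. Of all listed interferon-stimulated genes with a window, called or not, 21 of 33 (63.6%) held it. The high share is thus not particular to the called members. Among the 10, Ifit3b has the same stretch as Ifit3, and Oas1g nearly that of Oas1a. A match describes letters in a window and says nothing of a factor bound there.

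Of 23 chemokine ligands, 7 were called higher and none lower, and the median was 1.09. Cxcl10, an interferon-inducible attractant of T cells, rose 24.8-fold from 3.22, 1.59 and 3.29 CPM to 133, 39.4 and 30.6 CPM (log2 fold change 4.63 ± 0.75, adjusted p = 0.0034). Ccl5, an attractant of T cells and monocytes, rose 16.3-fold from 2.04, 6.83 and 2.74 CPM to 81.8, 39.9 and 66.5 CPM (log2 fold change 4.03 ± 0.54, adjusted p = 0.0008). The first mutant library was the highest for both, and was so for all 7 called ligands. The monocyte attractants Ccl12 (62.0, 63.9 and 80.4 CPM in sham, 569, 286 and 310 CPM in mutant libraries, log2 fold change 2.50) and Ccl2 (11.4, 3.0 and 3.77 CPM, then 40.8, 25.7 and 25 CPM, 2.33) were both called. Ccl3 (2.37), Ccl4 (2.49) and Cxcl16 (1.34) completed the list. Cxcl9 had a log2 fold change of 3.86 with an adjusted p = 0.06, and the B cell attractant Cxcl13 one of 5.07 with an adjusted p = 0.4. Without the second sham library 4 ligands were called.

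In antigen presentation, 5 of 24 genes were called higher, all of them class I heavy chains, and the median was 0.76. H2-K1, a classical class I chain, rose 3.07-fold from 84.2, 72.3 and 88.3 CPM to 351, 205 and 195 CPM (log2 fold change 1.62 ± 0.22, adjusted p = 0.00086). H2-D1, the other classical chain, rose from 86.1, 94.9 and 141 CPM to 443, 297 and 251 CPM (1.62). The non-classical chains H2-Q4 (2.06), H2-Q6 (3.05) and H2-Q7 (3.49) were also called, and since these chains are near-identical in sequence their reads may be divided uncertainly among them. B2m, the shared light chain, had a log2 fold change of 0.86 (adjusted p = 0.095) and Nlrc5, the class I transactivator, one of 3.15 (adjusted p = 0.071). Class II genes did not pass, with log2 fold changes of 0.45 for Cd74, 0.33 for H2-Aa and 0.71 for H2-Ab1. The number called was 3 without the second sham library or the first mutant library.

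Inflammatory cytokines and their receptors contributed 3 called genes of 30, with a median of 0.63. Tnf rose 5.46-fold from 4.62, 1.78 and 1.06 CPM to 14.4, 15.7 and 10.5 CPM (log2 fold change 2.45 ± 0.48, adjusted p = 0.015), and Csf2ra, a receptor chain for GM-CSF, had a log2 fold change of 1.24. Csf1 was the third. Il1b was at 6.60, 6.79 and 18.2 CPM in sham and 14.7, 25.3 and 17.9 CPM in mutant libraries, which overlap (log2 fold change 0.87, adjusted p = 0.74). Il6 (-0.16) and Tgfb1 (-0.44) were not called. Without the second sham library 1 gene of this list was called.

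Genes of reactive oxygen species and antioxidant defence were mostly below the bar, with 2 of 35 called higher and a median of 0.33. Tspo, an outer mitochondrial membrane protein used as an imaging marker of activated microglia, was at 11.8, 11.9 and 12.6 CPM in sham and 32.9, 27.4 and 29.5 CPM in mutant libraries. It rose 2.47-fold (log2 fold change 1.31 ± 0.19, adjusted p = 0.0014), with little spread within either group. Cybb, the catalytic subunit of the phagocyte NADPH oxidase, was at 2.68, 4.82 and 9.63 CPM in sham and 17.8, 11.6 and 15.7 CPM in mutant libraries (log2 fold change 1.39 ± 0.33, adjusted p = 0.049). The oxidase partners Cyba (0.18) and Ncf1 (0.20) were not called. Xdh, xanthine dehydrogenase, had a log2 fold change of 2.25 (adjusted p = 0.053), and Gpx1, a glutathione peroxidase, 0.77 with an adjusted p = 0.019, under the bar on the fold. Hmox1 (0.82), Acod1 (2.21), Ptgs2 (1.01), Ass1 (1.98) and Cdkn1a (1.4) had adjusted p-values of 0.33, 0.66, 0.73, 0.11 and 0.079. Leaving out any 1 library other than the third sham library left 1 of the 2 genes called, and 3 were called without that one.

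Of 23 genes of complement and Fc receptors, 3 were called higher and 1 lower, with a median of 0.27. Fcgr4, an activating receptor for IgG, rose from 4.05, 6.38 and 11 CPM to 56.8, 28.7 and 28.0 CPM (log2 fold change 2.40, adjusted p = 0.0022). Cfb, factor B of the alternative complement pathway, rose from 0.255, 0 and 0.0754 CPM to 5.40, 3.12 and 3.87 CPM (log2 fold change 5.16, adjusted p = 0.015). C1qa, a chain of the starter of the classical pathway, was high in all libraries (1246 to 1765 CPM in sham, 1796 to 2002 CPM in mutant libraries) with a log2 fold change of 0.40. The lower member was Fcrls, and the third higher one Itgax. Without the third sham library 5 genes of this list were called higher, and none when only the 6 compared libraries were fitted.

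The integrin that binds the replaced fibrin stretch did not pass the test at the RNA level. Itgam, which encodes CD11b, was at 246, 229 and 327 CPM in sham and at 300.1, 339 and 309 CPM in mutant libraries (log2 fold change 0.24 ± 0.16, adjusted p = 0.74). Itgb2, which encodes CD18, was at 73.6, 75.4 and 102 CPM in sham and at 85, 74.1 and 79.9 CPM in mutant libraries (-0.07 ± 0.14). Itgax was the only called gene of the 18 integrins and fibrin receptor subunits, whose median was 0.03. None of 21 tested genes of fibrinogen, coagulation and fibrinolysis was called by edgeR or DESeq2, 4 had an unadjusted p under 0.05, and their median was 0.77.

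Homeostatic genes lay mostly below sham without passing. Of 32 tested, 26 had a log2 fold change below 0 (over all genes 45.0%), 1 was called lower and none higher, and the median was -0.41. The called gene was Fcrls, which lies on chromosome 3 and had a log2 fold change over sham of 0.00 in WT at 7 d. In 20 of the 32 the mutant libraries lay below all sham libraries (7.2% of all genes), and 7 had an unadjusted p under 0.05 in the lower direction (2.15% of all genes). P2ry12, the ADP receptor that guides microglial processes, was at 4021, 3953 and 4021 CPM in sham and at 2433, 2227 and 2115 CPM in mutant libraries. The libraries did not overlap, yet the log2 fold change of -0.82 ± 0.42 had an adjusted p = 0.67. This SE reflects the spread over all 21 libraries and not over these 6 alone. With only the 6 compared libraries fitted, 2 homeostatic genes were called lower. Tmem119, a microglial surface marker, was at 445, 443 and 639 CPM in sham and 352, 309 and 256 CPM in mutant libraries (-0.74, adjusted p = 0.41). Selplg, a selectin ligand, had a log2 fold change of -0.70 (adjusted p = 0.5), Cx3cr1, the fractalkine receptor, -0.36, and Sall1, a transcription factor of microglial identity, -0.48. Csf1r, the receptor on which microglial survival depends, had a log2 fold change of -0.09. P2ry12 and Csf1r, which mark microglia, were abundant in all 6 libraries, Csf1r being at 1093 to 1711 CPM in sham and 1151 to 1296 CPM in mutant libraries.

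The remaining lists had few or no called members. EdgeR called no gene among 44 of cell cycle and proliferation (median 0.35), 25 of glycolysis and hypoxia (0.22), 22 of alternative activation and arginine metabolism (0.21), 37 of oxidative phosphorylation (0.24) or 31 of the immediate early response (-0.03). Of these lists in turn 7, 8, 4, 6 and 3 genes had an unadjusted p under 0.05, and DESeq2 called 1, 0, 3, 0 and 0. Spp1 and Gpnmb were the only 2 called of 39 extracellular matrix, protease and growth factor genes (0.67). Of 23 markers of neurons and glia, edgeR called only Mobp, a myelin protein, and DESeq2 called 3, all higher. Mobp was at 0.255, 0.266 and 0.352 CPM in sham and 2.97, 1.83 and 1.22 CPM in mutant libraries (log2 fold change 2.77, adjusted p = 0.044). It was not called when any 1 of the 6 libraries was left out. The sum of that list was 79.7 to 87.0 CPM in sham and 82.9 to 95.6 CPM in mutant libraries. Ctla2a, an inhibitor of cathepsin-like proteases, rose from 0.0956, 0.038 and 0.0251 CPM to 1.92, 2.01 and 3.23 CPM (log2 fold change 5.42, adjusted p = 0.011), while Adam8 (1.0), Fn1 (1.12), Saa3 (5.76), Klrk1 (3.25) and Cspg4 (all sham libraries at 0) had adjusted p-values of 0.69, 0.66, 0.13, 0.36 and 0.079.

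Cytosolic ribosomal protein genes shifted together by a small amount. Of 50, 49 had a log2 fold change above 0, with a median of 0.76. In the higher direction 48 had an unadjusted p under 0.05 (5.44% of all genes), and 48 had mutant libraries above all sham libraries (8.45% of all genes). Of the list, only Rpl41 (447, 482 and 436 CPM in sham, 1022, 922 and 1134 CPM in mutant libraries, log2 fold change 1.17, adjusted p = 0.0034), Rpl32 (1.03) and Rpsa (1.15) passed the bar. Rpl35, a further ribosomal protein gene that is not on the list, was also called higher. The number of listed genes called higher was 1 without the first sham library or the third mutant library and 7 without the third sham library. The list's median stayed between 0.60 and 0.83 under the alternatives, scaling included. The gene that went the other way was Rps3a1, called lower.

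Rps3a1 encodes a protein of the small ribosomal subunit and lies 3.13 Mb from Fgg on chromosome 3 (86137940 to 86142702). Its level was 200, 274 and 270 CPM in sham and 143, 101 and 97.1 CPM in mutant libraries (log2 fold change -1.12 ± 0.19, adjusted p = 0.0053). The annotated copies of this gene on other chromosomes went the opposite way. Rps3a2 on chromosome 14 was at 5.71, 7.25 and 11.9 CPM in sham and at 141, 197 and 193 CPM in mutant libraries (4.41 ± 0.32, adjusted p = 1.3e-07). Rps3a3 on chromosome 13 was at 0.733, 0.987 and 1.68 CPM in sham and at 138, 196 and 212 CPM in mutant libraries (7.30 ± 0.47, adjusted p = 5.9e-08). These were the smallest adjusted p-values of any gene in the comparison together with that of Gm3608 (1.2e-07). In WT microglia at 7 d the copies were at 13.2 to 21.9 CPM and 1.15 to 4.83 CPM.

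The copies differ from Rps3a1 by so few bases that reads can be assigned to one or the other by single letters. Over the 792 coding bases of Rps3a1, Rps3a2 differs at 4 and Rps3a3 at 9. The 3 sequences are shown for coding bases 549 to 668, from transcripts of GENCODE M21 (GRCm38), with capitals at positions where a copy and Rps3a1 differ.

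Rps3a1: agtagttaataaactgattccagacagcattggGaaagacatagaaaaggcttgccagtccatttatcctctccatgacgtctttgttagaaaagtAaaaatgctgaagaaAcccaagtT

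Rps3a2: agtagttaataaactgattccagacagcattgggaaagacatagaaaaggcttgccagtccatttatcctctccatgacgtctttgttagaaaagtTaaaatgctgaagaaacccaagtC

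Rps3a3: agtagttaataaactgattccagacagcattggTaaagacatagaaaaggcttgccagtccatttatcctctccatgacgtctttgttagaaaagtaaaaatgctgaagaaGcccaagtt

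Summed over the 3 loci, the family was at 206, 282 and 283 CPM in sham (257 ± 44.2, SD, n = 3), at 422, 493 and 501 CPM in mutant microglia (472 ± 43.7) and at 507, 403 and 444 CPM in WT microglia at 7 d (451 ± 52.5). The sums of the injured groups overlapped. The share of the sum held by Rps3a1 was 95.2% to 97.1% in sham, 93.9% to 97.2% in WT at 7 d and 19.4% to 33.9% in mutant libraries. Rpl34 on chromosome 3 and its copy Rpl34-ps1 showed a like split, with Rpl34 holding 95.6% to 97.8% of their sum in sham, 93.3% to 94.6% in WT at 7 d and 44.7% to 56.8% in mutant libraries. Here the sum itself was higher in the mutant (344, 394 and 425 CPM, 387 ± 40.9) than in WT at 7 d (294, 233 and 272 CPM, 266 ± 31.1), without overlap. Rpl34-ps1 was at 2.29, 5.96 and 7.24 CPM in sham and 148, 218 and 228 CPM in mutant libraries. In mutant microglia at 1 d Rps3a1 held 17.6% to 19.2% and Rpl34 39.8% to 59.5% of their sums. The split was thus present in the mutant at both times. Levels of these genes and copies depend on how reads were divided among them, and the sequence of the mutant's own chromosome 3 was not analysed here.

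**Figure D3:**
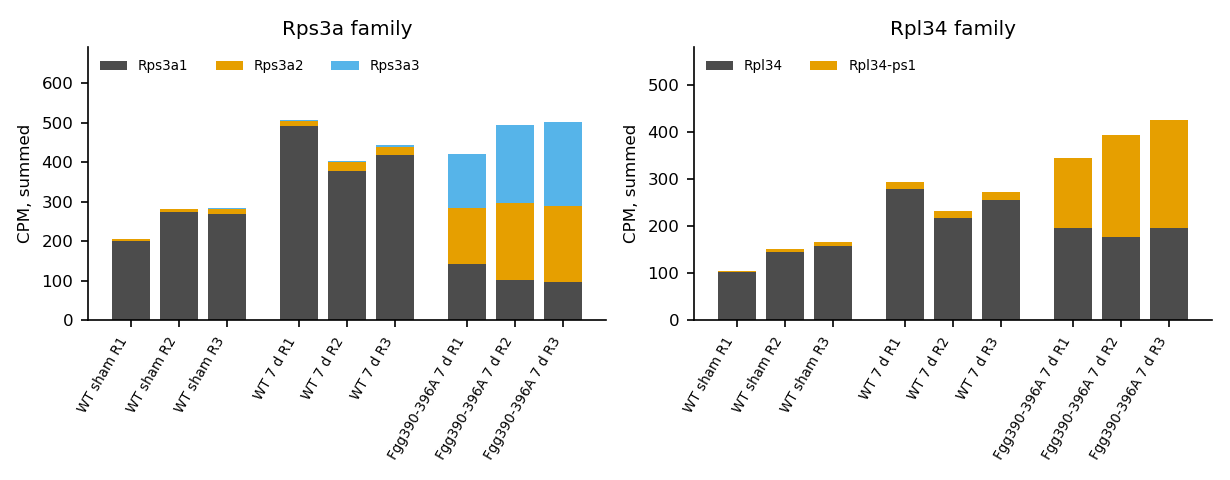
Summed level in CPM of Rps3a1 with its copies Rps3a2 and Rps3a3 (left) and of Rpl34 with its copy Rpl34-ps1 (right) in each library of WT sham, WT at 7 d and Fgg390-396A at 7 d. The coloured shares of the copies fill most of each mutant bar on the left, where Rps3a1 holds 19.4% to 33.9% of the sum, and little of any WT bar.

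The same was examined for the 23 called genes annotated as pseudogenes, and for Gm10076 and Rpl9-ps6, which are annotated otherwise and were added after their values were seen. Clec7a and C920009B18Rik had no other protein-coding gene that aligned over at least 50% of their length. Of the 23 genes that had one, 16 match a ribosomal protein gene. Between the genotypes at 7 d, where a gene was called at an adjusted p under 0.1 and the same bar on the fold, 9 of 23815 genes were called (0.0378%), 6 higher (0.0252%) and 3 lower (0.0126%) in the mutant. These are edgeR's calls, and DESeq2 called 72 (36 higher and 36 lower), whose chromosomes are not given here. The 6 genes that edgeR called higher are all annotated as pseudogenes. Each of the 6 best matches a gene of chromosome 3: Rps3a3 (98.9% identity) and Rps3a2 (99.5%) match Rps3a1, Rpl34-ps1 (99.4%) Rpl34, Gm3608 (99.5%) Capza1, Hist1h2al (99.4%) Hist2h2aa2 and Gm5900 (99.5%) Lamtor3. The 17 others match genes of other chromosomes, and edgeR called none of them between the genotypes. Gm3608 was at 2.07, 2.70 and 3.87 CPM in sham and 36.7, 46.1 and 44.6 CPM in mutant libraries, while Capza1, an actin-capping subunit, was at 65.5, 64.5 and 82.0 CPM and 43.2, 42.1 and 46.5 CPM (log2 fold change -0.69, adjusted p = 0.11).

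Chromosome 3 carries the mutated gene and 6.14% of the genes tested. Of the genes called against sham it held 16 of 158 (10.1%), made up of 11 of 150 higher and 5 of 8 lower genes. Fcrls, an Fc receptor-like scavenger receptor used as a marker of homeostatic microglia, lies 4.24 Mb from Fgg (87250758 to 87263738). It was at 626, 664 and 816 CPM in sham and at 271, 185 and 229 CPM in mutant libraries (log2 fold change -1.62 ± 0.28, adjusted p = 0.0066). In WT microglia at 7 d it was at 730, 683 and 697 CPM, with a log2 fold change over sham of 0.00, and the difference between genotypes was called (-1.62, adjusted p = 0.04). This call was lost, with adjusted p up to 0.48 and a difference of -1.48 to -1.77 over all alternatives, when the second or the third mutant library or any 1 WT library was left out. Fcrl1, an Fc receptor-like gene known from B cells, lies 4.37 Mb from Fgg (87376387 to 87402934) and was at 24.7, 23.8 and 21.2 CPM in sham and 3.56, 0.359 and 0.394 CPM in mutant libraries (-3.98 ± 0.69, adjusted p = 0.0061). WT libraries at 7 d held 9.51 to 15.9 CPM of Fcrl1, and the difference between genotypes had an adjusted p = 0.26.

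The other chromosome 3 genes were not alike in the WT comparison. Fam102b (26.0 Mb from Fgg) fell from 92.3, 99.1 and 104 CPM to 51.0, 45.7 and 46.8 CPM (-1.04), and WT libraries at 7 d were at 54.7 to 59.2 CPM. Lmo4, a LIM-domain cofactor 61.2 Mb away, fell by 1.20 on the log2 scale, with -1.0 in WT. Gbp2b, a guanylate-binding protein 59.6 Mb away, was at 0.159, 0 and 0 CPM in sham and 2.36, 3.27 and 2.22 CPM in mutant libraries (5.54 ± 1.08, adjusted p = 0.021), and at most at 0.0773 CPM in the WT libraries at 7 d. Its difference between genotypes was 5.83 (adjusted p = 0.24). Fabp5, 73.0 Mb on the other side of Fgg, was at 1.05, 0.342 and 0.905 CPM in sham, 2.77, 5.10 and 3.62 CPM in mutant and 15.6, 13.7 and 12.3 CPM in WT libraries at 7 d. It was called higher against sham and lower between genotypes (-1.86, adjusted p = 0.015), the latter not without the first or the third mutant library or the first WT library. The 3 genes that edgeR called lower between genotypes, Rps3a1, Fcrls and Fabp5, all lie on chromosome 3, whereas DESeq2 called 36 genes lower. The part of sequence around the mutated gene in the differences of these 3 genes was not tested. Without the chromosome 3 genes 3 genes were called lower than sham.

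**Figure D4:**
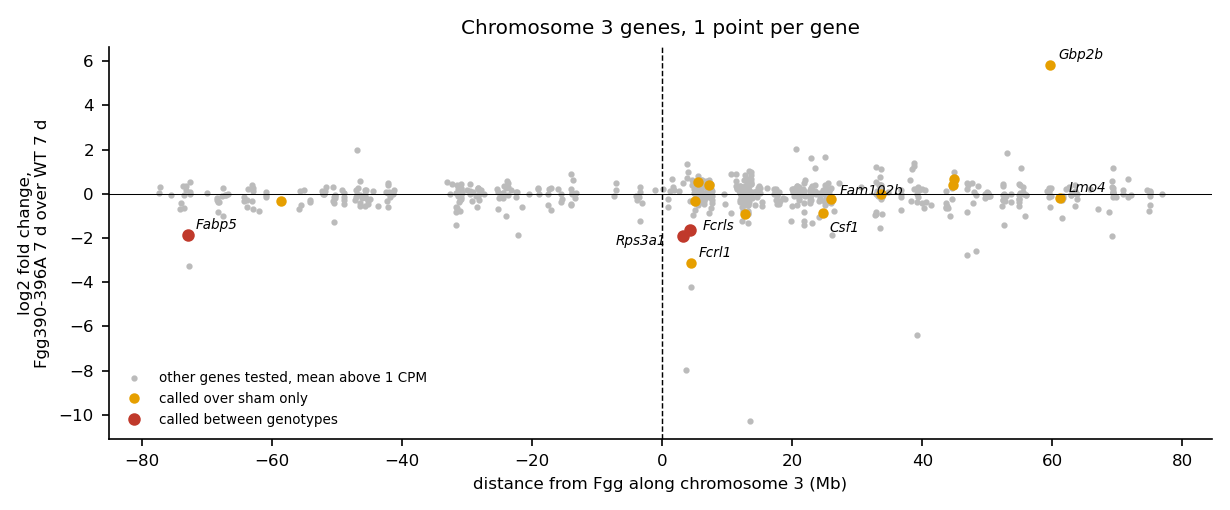
Log2 fold change of mutant over WT microglia at 7 d for genes on chromosome 3 by distance from Fgg in Mb (1 point per gene). Small grey points are tested genes with a mean above 1 CPM, orange points were called over sham only and red points also between genotypes, with labels for the genes described in the text. Rps3a1 (3.13 Mb), Fcrls (4.24 Mb) and Fcrl1 (4.37 Mb) lie close together below 0, and Fabp5 lies 73.0 Mb to the other side.

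WT microglia at 7 d were compared with the same sham libraries, so the following values are set side by side and their likeness is not a separate result. In WT, 481 genes (2.02%) were called, 459 (1.93%) higher and 22 (0.0924%) lower. The 150 genes called higher in the mutant had a median log2 fold change of 2.35 in the mutant and 2.44 in WT. For the DAM list 14 of 37 genes were called in the mutant and 24 in WT, with medians of 1.04 and 1.85. For interferon-stimulated genes 19 and 27 of 43 were called, with medians of 1.97 and 2.25. Chemokine ligands had 7 and 9, antigen presentation 5 and 10, and reactive oxygen species and antioxidant defence 2 and 7 called genes.

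The test of the difference between genotypes at 7 d called 1 DAM gene, Fabp5, and no interferon-stimulated gene. DESeq2 called 4 DAM genes lower in the mutant. Of the 37 DAM genes, 36 were lower in the mutant than in WT (45.9% of all genes were below 0), 30 had mutant libraries below all WT libraries (5.28% of all genes), and 18 had an unadjusted p under 0.05 in that direction (2.11% of all genes). The sum of the monocyte and macrophage markers was also lower in the mutant, with 1036, 917 and 767 CPM in WT against 478 to 679 CPM. So was the mitochondrial share of reads (10.7% to 11.1% in WT against 8.51% to 8.62%). Neither overlapped between the genotypes. The markers did not move as a set: 10 of 18 were below 0 and 7 above, with a median of -0.15. None was called, and 2 had mutant libraries below all WT libraries. Lyz2, which made up most of the sum in sham and mutant libraries, is itself on the DAM list. The part of these markers and of the mitochondrial share in the DAM differences was not tested. Of the 43 interferon-stimulated genes, 39 were below 0 with a median of -0.29, 5 had mutant libraries below all WT libraries, and none had an unadjusted p under 0.05 or was called by DESeq2. Spp1 was at 196, 337 and 135 CPM in WT, above the 26.6 to 62.3 CPM of the mutant, and its difference of -2.18 had an unadjusted p = 0.0004 and an adjusted p = 0.48. Apoe was at 5543, 6177 and 5736 CPM in WT (difference -0.97, adjusted p = 1). Clec7a was at 148, 143 and 152 CPM in WT, against 48.8 to 85.7 CPM in the mutant (difference -1.12, unadjusted p = 0.0018, adjusted p = 1). For all 3 genes the mutant libraries at 7 d lay between those of sham and those of WT at 7 d. Over the whole set of 150 genes, 121 were lower in the mutant than in WT, with a median difference of -0.39. All 50 ribosomal protein genes were also below 0 in this comparison.

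**Figure D5:**
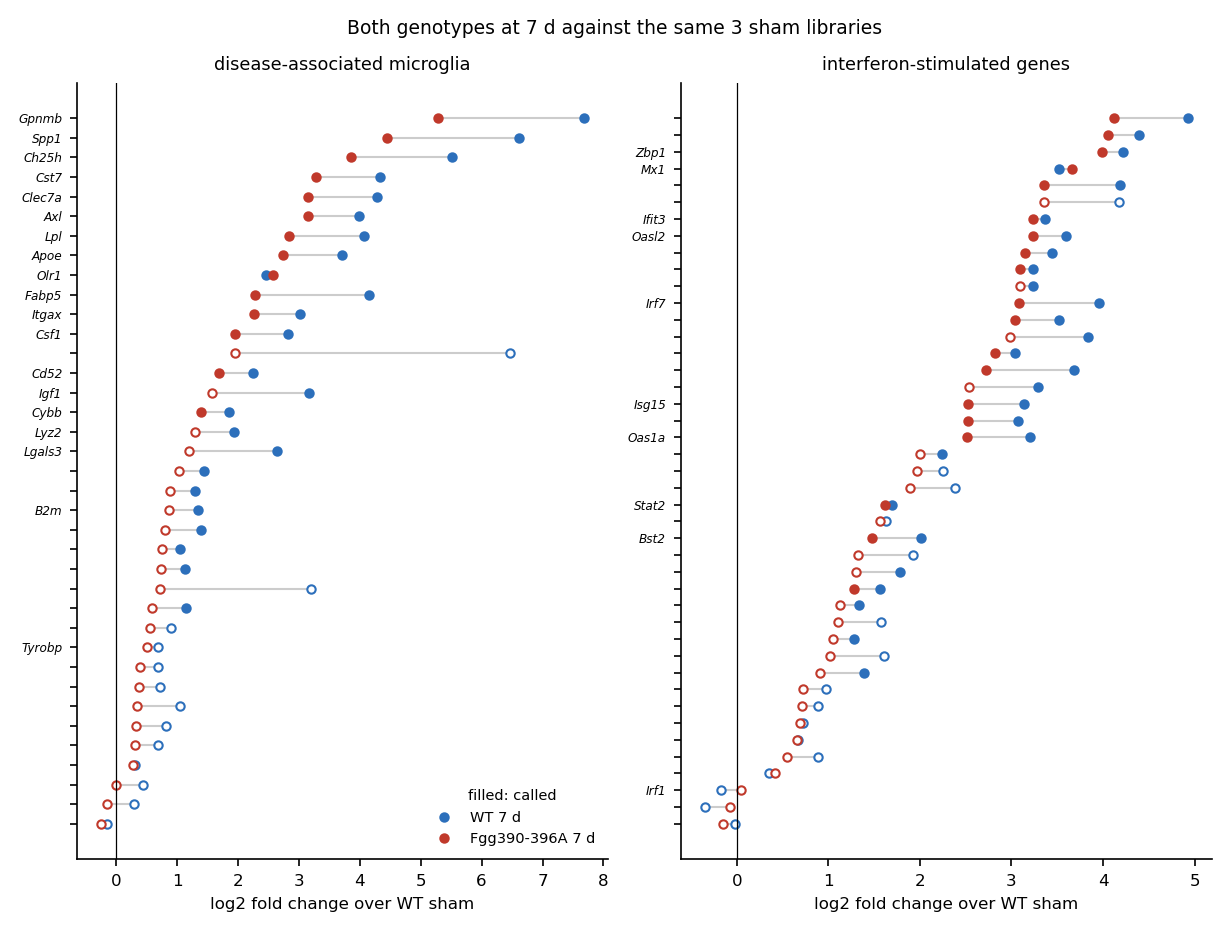
Log2 fold change over the same 3 WT sham libraries for each tested gene of the DAM list (left) and of the interferon-stimulated list (right), in Fgg390-396A microglia at 7 d (red) and WT microglia at 7 d (blue), filled where called and labelled where the gene is described in the text. Red points lie to the left of blue ones for 36 of 37 DAM genes and 39 of 43 interferon-stimulated genes.

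Between 1 d and 7 d after injury more genes were called in mutant microglia than between 7 d and sham. Of all genes tested, 844 (3.54%) were called, 158 (0.663%) higher and 686 (2.88%) lower at 7 d. Apoe rose from a mean of 203 CPM at 1 d to 2966 CPM at 7 d (log2 fold change 3.87), and Mpeg1, a pore-forming protein of phagocytes, rose by 1.23. Pcna, the clamp of DNA polymerase, fell (-1.64), and so did Mcm4, a subunit of the replicative helicase (-2.48). By lists, 14 of 44 cell cycle genes, 9 of 25 glycolysis genes, 11 of 37 oxidative phosphorylation genes and 13 of 39 extracellular matrix genes were called lower at 7 d than at 1 d. In antigen presentation 6 of 24 were called higher. Of 37 DAM genes, 7 were higher and 5 lower at 7 d. Spp1 was at a mean of 220.1 CPM at 1 d and 49.2 CPM at 7 d, and Lpl at 216 and 38.2 CPM, while Clec7a was at 16.7 and 67.7 CPM. Of the 7 chemokine genes called over sham at 7 d, Ccl12 stood at a mean of 2843 CPM at 1 d and 388 CPM at 7 d (log2 fold change -2.87), and Ccl2 at 143 and 30.5 CPM (-2.23).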

How the data were processed

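RNA of sorted cells was amplified with a low-input kit and sequenced as read pairs by the authors, who deposited 1 gene table of estimated counts from salmon, scaled so that gene length is divided out and each library sums to its mapped reads (expected counts, build GRCm38 per the labels). The processing notes name R 4.2.0 and DESeq2 1.36.0. Of 45706 gene IDs, 45143 matched GENCODE M21. Counts were rounded, genes with a summed count of at least 5 over 21 libraries were kept (23815), and 1 quasi-likelihood model of 7 groups was fitted with edgeR 4.0.16 (R 4.3.3) and TMM factors (common biological coefficient of variation 0.643). Members and gene lists were chosen with earlier results of these data known. Named genes are, per direction, up to 12 called protein-coding genes of smallest p whose mutant and sham libraries did not overlap. Further ones are up to 4 called and the defining members per list, genes the study shows for 7 d, and every gene called between genotypes. Libraries are separate pools of animals, so p-values measure the spread between pools. That spread was estimated over all 7 groups, infiltrating myeloid cells included, and not from the compared pools alone. On simulated counts of this comparison 136 of 200 genes changed by a log2 fold change of 2 were called, with 3 other calls among 23220 genes. The changed genes had a mean above 1 CPM over all 21 libraries, and no other difference between groups was simulated. Recovery of genes near 0 CPM was thus not measured. DESeq2 1.42.0 gave an alternative. Replicate numbers are in the library names, and the check of whether they pair libraries stands with the alternatives.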

Additional observations from a re-analysis of the deposited data

Results flagged for a closer look

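The difference between genotypes at 7 d was itself tested, and edgeR called 9 genes. No sham group of the mutant genotype was analysed, so whether their response to injury differed cannot be told. Levels of Rps3a1, Rps3a2, Rps3a3, Rpl34-ps1, Gm3608, Hist1h2al and Gm5900 also depend on how reads were divided among near-identical copies. Higher in the mutant, as log2 differences, were Rps3a3 (5.99), Gm3608 (3.21), Rps3a2 (3.28), Rpl34-ps1 (3.6), Hist1h2al (7.98) and Gm5900 (3.41), and lower were Rps3a1 (-1.92), Fabp5 (-1.86) and Fcrls (-1.62).

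The difference between 7 d and 1 d in mutant microglia was likewise tested and called 844 genes. Those with the smallest p that were higher at 7 d were Mpeg1 (1.23), Klhl24 (1.92), Rcbtb2 (1.45), Apoe (3.87) and Itm2b (1.14), and those that were lower were Slc39a14 (-3.46), Pcna (-1.64), Ran (-2.07), Mcm4 (-2.48) and Naaa (-2.82).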

How the results depend on the processing

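Of the 158 genes called over sham none turned its direction under any alternative, whereas uncalled values near 0 could change sign, such as Itgb2 (-0.23 to 0.10) and the median of the integrin list (-0.12 to 0.31). Of the 158, 39 were called in every alternative that tested them, 55 in every fit that left out 1 library. The 158 calls became 85 (73 higher) with the 6 compared libraries alone, 339 (301 higher, 38 lower) with DESeq2's test and 71 (66 higher, 5 lower) at an adjusted p under 0.01. The 8 lower genes became 14 with totals without ribosomal RNA, 12 with the compared libraries alone, 3 without chromosome 3 genes and 13 without a bar on the fold. Leaving out 1 library gave 74 to 179 calls, 68 to 173 higher and 5 to 6 lower, with 82 without the first and 74 without the second sham library. By list, calls ranged over all alternatives from 3 to 26 of the interferon-stimulated, 7 to 15 of the DAM, 4 to 8 of the chemokine, 2 to 6 of the antigen presentation, 1 to 7 of the lipid, 1 to 5 of the reactive oxygen species, 0 to 5 of the complement and Fc receptor and 1 to 19 of the ribosomal protein genes. For WT at 7 d over sham the 481 calls became 807 with DESeq2, 289 at an adjusted p under 0.01 and 283 to 486 when leaving out 1 library, and totals without ribosomal RNA changed the split from 459 higher and 22 lower to 251 and 156 with a median shift of -0.24 (for the mutant 110 and 14, shift -0.08). Between genotypes the 9 calls became 19 with the compared libraries alone, 3 without pseudogenes, 72 with DESeq2 and 6 to 11 when leaving out 1 library, with Fcrls, Fabp5 and Gm5900 among those lost. Between 7 d and 1 d the 844 calls became 1343 without a bar on the fold, 510 at an adjusted p under 0.01 and 463 to 1163 when leaving out 1 library. The cause of these changes was not tested, except where genes or libraries were left out by construction. Libraries of the same replicate number in mutant and sham groups correlated in their deviations by 0.13, 0.020 and -0.012, and those of unlike number by -0.15 to 0.14. For mutant and WT at 7 d these values were 0.12, 0.15 and -0.031, and -0.17 to 0.053. The main fit did not pair libraries, and so few values cannot settle whether the numbers mark pairs. With the replicate block the calls were 185 over sham, 495 for WT, 10 between genotypes and 879 between days. With 3 libraries per group, a missing call does not show that a gene did not change.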

Other observations

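Of the 158 genes called over sham, 94 were on no list, and those named here were chosen after their values were seen. Several are further genes under interferon control. Ifitm3, a membrane protein that blocks virus entry, rose from 17.6, 32.6 and 75.2 CPM in sham to 368, 183 and 213 CPM in mutant libraries (log2 fold change 2.61, adjusted p = 0.016). Eif2ak2, the RNA-activated kinase that stops translation, rose from 18.3, 17.5 and 20.9 CPM to 52.8, 39.4 and 36.9 CPM (1.18). Ifi206 and Ifi213, of a nucleic acid sensor family, had log2 fold changes of 3.25 and 3.14, and Il18bp, a decoy receptor for interleukin-18, one of 2.03.

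Receptors and cytoskeletal genes were also among them. Cd83, a surface protein of activated antigen-presenting cells, rose from 27.3, 38.6 and 47.2 CPM to 135, 93.8 and 97.7 CPM (1.53, adjusted p = 0.016), and Hcar2, the niacin receptor, from 1.34, 3.95 and 2.89 CPM to 15.1, 9.69 and 8.68 CPM (2.04). The actin-associated genes Tpm4 (1.45) and Myo1e (1.72) were even across libraries, Myo1e being at 3.89, 3.11 and 4.00 CPM in sham and 11.9, 11.8 and 12.6 CPM in mutant libraries. Fgl2, a fibrinogen-like protein with prothrombinase activity, rose from 4.94, 6.53 and 9.83 CPM to 34.6, 14.1 and 17.2 CPM (1.63, adjusted p = 0.01). EdgeR called none of these genes between genotypes at 7 d.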
